A study of Mus musculus with 2 samples.

Results

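Activins and inhibins are secreted dimers that share their beta subunits. An activin joins a pair of beta subunits, whereas an inhibin joins the alpha subunit to a beta subunit and opposes activin. Activin binds a type II receptor, which recruits a type I receptor that phosphorylates SMAD2 and SMAD3, and follistatin binds activin and keeps it from its receptors. In the mouse fetal ovary follistatin is made by the supporting cells downstream of WNT4, and it limits activin signals that would otherwise favour a testis-like vessel. The 10 genes described here are Inha, Inhba and Inhbb, which encode the subunits, Fst, Fstl1 and Fstl3, which encode follistatin and proteins that share its domains, the receptor genes Acvr1b, Acvr2a and Acvr2b, and Tgfbr3, which encodes betaglycan. They were chosen by symbol, as every probe set annotated to exactly 1 gene symbol on the list, which gave 19 of 45101 probe sets and 10 of 18193 genes.

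The arrays held RNA of gonad-mesonephros complexes (gonads dissected together with the mesonephros, the embryonic kidney beside them) from XX embryos at E12.5. The mutant array carried RNA of C57Bl/6 embryos homozygous for Gata4ki (Gata4ki/ki), a germline knock-in that weakens binding of the transcription factor GATA4 to its FOG cofactors. The wild-type array carried RNA of wild-type embryos, whose strain the labels do not give. No treatment is named for either group. Each array was hybridised with total RNA of 6 pairs of complexes pooled together, and the study asked which ovarian genes depend on the GATA4 and FOG2 complex. With 1 array a group there is no replicate error, no test between the groups and no p-value, and every difference describes these 2 arrays. In pooled tissue, fewer cells of a type and less RNA per cell cannot be told apart.

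Values are MAS5 signals on a linear scale in arbitrary units. Signals under 24.0, the 50th percentile of both arrays and here called the floor, were raised to it, and ratios are log2 of mutant over wild type after that step. A gene counts as measured if either array exceeded the floor, and where only 1 did, its ratio is a bound. A gene with several probe sets is represented by the one with the highest mean log2 signal, called here its brightest. The median signal was 24.0 on the mutant array and 24.1 on the wild-type array, and both arrays had a mean of 150.0 once the 2% of probe sets at each end were left out. The 3' to 5' signal ratio of beta-actin was 2.47 on the mutant array and 2.16 on the wild-type array. Nr5a1, which marks gonadal somatic cells, had signals of 276.7 in mutant and 218.7 in wild type, and the mesonephric gene Pax8 had 83.1 in mutant and 92.4 in wild type, so markers of both labelled parts of the tissue were above the floor on both arrays.

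Of the 10 genes, Fst was far lower in the mutant and Inha higher, 7 were less than 2-fold apart, and Fstl3, below the floor in wild type, was known only as at least 1.61-fold higher. All 10 were measured, 9 of them above the floor on both arrays. A signal 2-fold higher or more was found in the mutant for 1 of the 10 genes and for 0.846% of the 12300 measured genes. A signal 2-fold lower or more was found for 1 of the 10 and for 0.537% of measured genes. Ratios ran over the whole set from -3.55 for Fst to 1.96 for Inha. Of the 10 ratios 7 were above 0 and 7 were within 1.5-fold, beside 6320 and 11482 of the 12300 measured genes. Fstl3, among the 7 above 0, was measured through the mutant array alone, which fixed its sign. The median of the 10 ratios was 0.23, beside a median of 0.01 over all measured genes. By probe set, 14 of the 19 were above the floor on both arrays, 2 on 1 array and 3 on neither, and none had a suffix that marks sequence shared between transcripts.

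**Figure D1:**
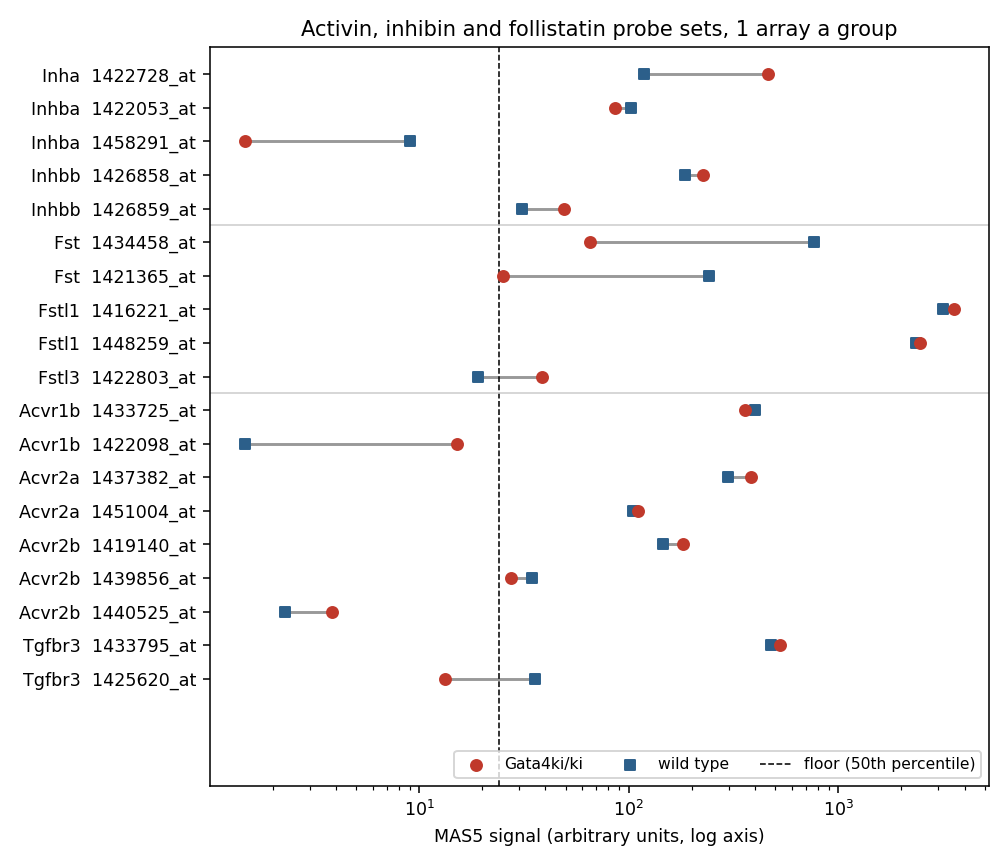
MAS5 signal (log axis) of the 19 probe sets of the 10 genes on the Gata4ki/ki array (circles) and the wild-type array (squares), grouped as subunits, binding proteins and receptors, with the floor of 24.0 dashed. Both Fst probe sets lie far to the left in the mutant and the Inha probe set lies to the right, while the circles and squares of the other probe sets that are above the floor on both arrays lie close together.

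Fst was the member with the largest difference. Its brightest probe set (1434458_at) gave a signal of 65.6 in the mutant and 769.5 in wild type. This is an 11.7-fold lower signal in the mutant, a log2 ratio of -3.55. The ratio was the lowest of all 12300 measured genes, with bounds taken at their value. The second probe set (1421365_at) gave 25.2 in the mutant and 241.9 in wild type, 9.62-fold lower, with the mutant signal just above the floor. The log2 ratios of these probe sets differed by 0.29. For comparison, the median difference over the 3043 genes with 2 probe sets above the floor on both arrays was 0.20, and the 90th percentile of that difference was 0.62. Both Fst probe sets were hybridised with the same RNA, so their likeness says nothing about the spread between embryos.

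Few genes of like signal passed 2-fold, and none had a ratio as low as that of Fst. The mean signal of Fst over both arrays was 224.7 on the log scale. Among the 4722 measured genes with a mean signal of 100 to 400, 13 were at least 2-fold lower in the mutant, or 0.275%. In the same band 21 were at least 2-fold higher, or 0.445%. Fst is one of the 13 and Inha one of the 21. The robust SD of log2 ratios over the 4722 genes was 0.21. That SD is a spread over genes on 2 arrays and not over replicates. Nearest to Fst in ratio, among genes above the floor in mutant and wild type, were Gng13 at -2.46, Tcl1b3 at -2.37 and Akr1c14 at -2.27, each over 1 log2 unit away. Gng13, a G protein gamma subunit, had a signal of 37.9 in the mutant and 209.0 in wild type. Likeness here is the difference of a single ratio over 2 arrays.

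Several other genes of the ovarian supporting cells were lower on the same array. Of the 12 measured genes on the list of their markers, 5 were at least 2-fold lower and none was 2-fold higher, with 8 ratios below 0 and 4 above. The shares over all measured genes were 0.537% lower and 0.846% higher, and 5980 of 12300 had a ratio below 0. Sprr2d and Irx5 were above the floor in wild type alone, which fixed their sign. The summed signal of the 12 genes was 2486 in the mutant and 3571 in wild type, and their median log2 ratio was -0.69. Foxl2, a forkhead factor that granulosa cells need, had a signal of 34.5 in the mutant and 142.4 in wild type, 4.13-fold lower. Its log2 ratio of -2.05 became a bound of -1.55 at a floor of the 60th percentile. With a pseudocount of 16 in place of the floor it was -1.65. Wnt4, the ligand upstream of Fst, had 680.7 in the mutant and 829.1 in wild type, a log2 ratio of -0.28, and its other probe set had a ratio of -0.43. Sprr2d was at least 7.87-fold lower, a bound that moved to a log2 value of -1.96 at a floor of the 60th percentile. Msx1 was 2.66-fold lower and Irx3 2.09-fold lower, both homeobox genes, and Msx1 had a log2 ratio of -0.50 without probe sets whose suffix marks shared sequence. The 4 genes with ratios above 0 were Lgr5 at 0.62, Runx1 at 0.43, Bmp2 at 0.42 and Rspo1 at 0.34. The list was written with earlier results of these arrays known and is no independent support. Whether fewer supporting cells account for the Fst signal was not tested.

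**Figure D2:**
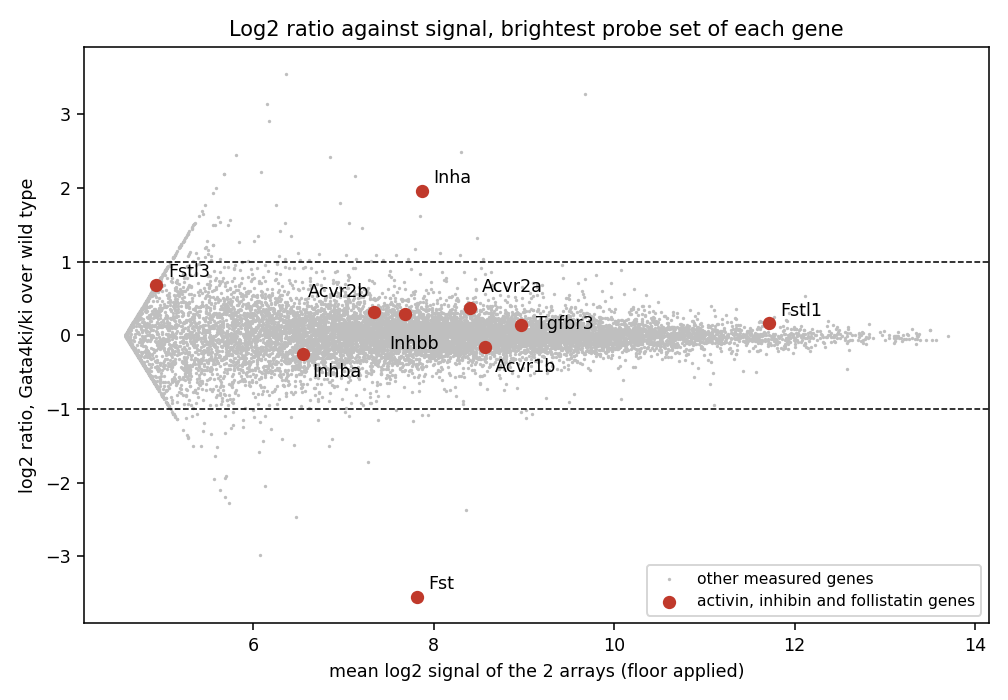
Log2 ratio of Gata4ki/ki over wild type against the mean log2 signal for the brightest probe set of each of 12300 measured genes (grey), with the 10 activin, inhibin and follistatin genes in red and dashed lines at 2-fold. Fst, at -3.55, lies below every other gene, Inha lies at 1.96, and the other 8 lie between the lines, Fstl3 as a bound.

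The relatives of follistatin did not have its low ratio. Fstl1, a secreted glycoprotein with a follistatin domain, had a signal of 3551 in the mutant and 3170 in wild type on the brightest probe set, with a log2 ratio of 0.16. The dimmer one had 2456 in the mutant and 2353 in wild type, a ratio of 0.06. The probe sets were thus 1.12-fold and 1.04-fold higher in the mutant. Fstl3, an activin-binding protein that lacks one of the follistatin domains, had a signal of 38.7 in the mutant and 19.1 in wild type. The wild-type signal was below the floor, so Fstl3 was at least 1.61-fold higher in the mutant, a log2 bound of 0.69. With the floor at the 40th percentile, a signal of 13.7, both arrays were above it and the log2 ratio was 1.02. The log2 ratio of Fst minus that of Fstl1 was -3.72, and minus that of Fstl3 at its bound it was -4.24.

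Among the subunits, Inha was higher in the mutant and both beta subunit genes were within 1.5-fold on their brightest probe sets. Inha, the alpha subunit that makes a dimer an inhibin, had a signal of 461.7 in the mutant and 118.6 in wild type on its only probe set (1422728_at). This is 3.89-fold higher in the mutant, a log2 ratio of 1.96, which was number 13 from the top among 12300 measured genes with bounds taken at their value. The rank depends on the floor, since Star and Lefty1, known here as bounds, exceed the ratio of Inha at a floor of the 40th percentile. No second probe set was available to set beside it.

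The beta subunits were close on both arrays. Inhbb, the subunit of activin B and inhibin B, had a signal of 227.2 in the mutant and 185.8 in wild type, a log2 ratio of 0.29. Its dimmer probe set had 48.9 in the mutant and 30.9 in wild type, 1.58-fold higher, a ratio of 0.66 that became a bound of 0.01 with the floor at the 60th percentile. Inhba, the subunit of activin A and inhibin A, had 86.1 in the mutant and 102.1 in wild type, a ratio of -0.25. Its other probe set had 1.48 in the mutant and 9.08 in wild type, both below the floor, and gives no ratio. The log2 ratio of Inha thus exceeded that of Inhbb by 1.67 and that of Inhba by 2.21 on the same arrays. Signals of different probe sets are not on a common scale, so these values do not give the proportion of alpha to beta transcripts. The genes Inhbc and Inhbe, which encode beta subunits known mainly from liver, were below the floor on both arrays.

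The letters around annotated start sites were read for the 3 subunit genes, of which Inha alone passed 2-fold, because the mutation affects a factor named for the letters GATA. The windows are 300 bases long, from RefSeq on build GRCm38.p6, and 8 of the 10 genes had one, with none for Fst and Tgfbr3. The Inha window (chr1:75507359-75507658, plus strand) surrounds a start that lies 532 bases inside the annotated gene. The Inhba window (chr13:16011601-16011900, plus strand) surrounds a start that lies 7595 bases inside the annotated gene. The Inhbb window (chr1:119422199-119422498, minus strand) surrounds the start of the annotated gene. Capitals mark GATA or its reverse complement TATC, and AGGTCA or its reverse complement TGACCT, the half-site read by nuclear receptors such as NR5A1.
Inha: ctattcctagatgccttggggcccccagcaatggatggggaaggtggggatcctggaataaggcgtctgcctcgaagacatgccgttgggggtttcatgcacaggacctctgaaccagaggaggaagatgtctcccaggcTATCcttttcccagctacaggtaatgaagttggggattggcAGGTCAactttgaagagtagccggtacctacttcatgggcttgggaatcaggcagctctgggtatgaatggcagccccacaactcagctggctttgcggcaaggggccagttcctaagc
Inhba: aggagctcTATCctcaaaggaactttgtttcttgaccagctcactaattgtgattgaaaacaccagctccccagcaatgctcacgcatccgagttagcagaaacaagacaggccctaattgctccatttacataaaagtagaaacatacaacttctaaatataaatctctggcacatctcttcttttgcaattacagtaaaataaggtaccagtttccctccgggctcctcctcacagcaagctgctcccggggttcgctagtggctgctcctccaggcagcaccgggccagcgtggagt
Inhbb: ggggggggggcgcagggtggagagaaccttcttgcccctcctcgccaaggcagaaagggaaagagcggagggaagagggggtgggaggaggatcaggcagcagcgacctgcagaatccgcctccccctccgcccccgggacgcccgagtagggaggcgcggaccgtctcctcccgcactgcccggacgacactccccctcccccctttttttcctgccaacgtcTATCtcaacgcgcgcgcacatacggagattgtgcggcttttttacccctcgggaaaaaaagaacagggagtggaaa
The Inha window held 1 TATC, at base 141, and 1 AGGTCA, at base 182. The Inhba window held 1 TATC, at base 9, and the Inhbb window 1 TATC, at base 225, and neither held AGGTCA on either strand. Of the 8 windows 5 held GATA or TATC, beside 57.9% of all 32851 windows in the table, and 2 held AGGTCA or TGACCT, beside 16.3% of all. The Fstl1 window held 3 matches to GATA or TATC, and 2 of them overlap. These are matches of letters and not sites of binding, and the absence of a match says only that the letters are not in the window.

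Some genes of steroid-producing cells were higher on the same array as Inha. Of 6 measured steroidogenic marker genes 3 were at least 2-fold higher and none 2-fold lower, beside 0.846% and 0.537% of all measured genes. The summed signal of the 6 was 1710 in the mutant and 1224 in wild type. Cyp17a1, the enzyme for androgen precursors, had a signal of 211.8 in the mutant and 6.49 in wild type. This makes it at least 8.81-fold higher, a log2 bound of 3.14 that was 3.95 at a floor of the 40th percentile and 2.13 at the 60th. Hsd3b1, which makes progesterone and its relatives, had 297.0 in the mutant and 66.1 in wild type. Star, the mitochondrial cholesterol carrier, had a bound of 3.82-fold higher on the brightest of its probe sets, and the others had log2 ratios of at least 0.91 and of 0.17. At a floor of the 60th percentile the brightest Star probe set had a bound of 0.92, under 2-fold. Of the remaining genes Cyp11a1 had a log2 bound of 0.55 and Fdx1 a ratio of 0.03. Scarb1 went the other way, at -0.25, with -0.47 and -0.08 on its other probe sets. Cyp17a1, Star and Cyp11a1 were below the floor in wild type on their brightest probe sets. There they were measured through the mutant array alone, which fixed their sign. Among genes above the floor in mutant and wild type, those with the ratio nearest to that of Inha were Thbs2, a thrombospondin, at 1.80, Mpo, myeloperoxidase, at 1.77 and Hsd3b1 at 2.17, over 2 arrays.

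Inha is also expressed in the adrenal cortex and in Sertoli cells, whose markers were examined as well. Of 5 adrenal cortex genes on the array, Cyp21a1, Cyp11b1 and Cyp11b2 were below the floor on both arrays. Mc2r, the corticotropin receptor, had a log2 ratio of 0.32 and Mrap, its accessory protein, a bound of 0.52. The summed signal of the 5 genes was 208.4 in the mutant and 175.9 in wild type, most of it from Mc2r with 144.8 in the mutant and 116.0 in wild type. Of 11 Sertoli and testis genes 7 were measured, with Amh, Dhh, Sox8 and Sox10 below the floor on both arrays. Vnn1 was 2.13-fold higher, Dmrt1 and Aard had ratios of -0.71 and -0.55, and the summed signal was 680.3 in the mutant and 671.9 in wild type. The part of any of these cell types in the Inha signal was not tested.

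The receptor genes were close to their wild-type signals. Acvr2a, a type II receptor for activin, had a signal of 384.9 in the mutant and 296.9 in wild type on the brighter probe set, giving a log2 ratio of 0.37, and 110.5 in the mutant and 104.8 in wild type on the other, a ratio of 0.08. Acvr2b, the second type II receptor, had 180.9 in the mutant and 145.6 in wild type, a ratio of 0.31. A dimmer Acvr2b probe set had 27.4 in the mutant and 34.5 in wild type, a ratio of -0.33, so its probe sets differed in sign. The remaining Acvr2b probe set had 3.85 in the mutant and 2.28 in wild type, both below the floor. All measured Acvr2a and Acvr2b probe sets were within 1.5-fold.

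Acvr1b, the type I receptor for activin also called ALK4, was within 1.5-fold too. Its signal was 358.8 in the mutant and 400.4 in wild type, a log2 ratio of -0.16. Its other probe set had 15.2 in the mutant and 1.48 in wild type, both below the floor. Tgfbr3 encodes betaglycan, the coreceptor that raises the affinity of inhibin for activin's type II receptors. It had 525.3 in the mutant and 476.2 in wild type, a ratio of 0.14. Its dimmer probe set pointed the other way, with 13.3 in the mutant and 35.5 in wild type, at least 1.48-fold lower. With the floor at the 40th percentile that dimmer value was a bound of -1.37. A further probe set annotated to both Orc4 and Acvr2a had 8.19 in the mutant and 3.30 in wild type, below the floor on both arrays, and was left out by the rule.

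Set beside the spread of genes with like signal, 2 of the 10 genes had a log2 ratio of more than 2 robust SD, namely Fst and Inha. Inhba and Acvr1b lay within 1 robust SD, and Fstl1, Inhbb, Acvr2a, Acvr2b and Tgfbr3 lay between 1 and 2. Fstl3 is known only as a bound and cannot be placed under 2. No share of all measured genes past these limits is given, so the counts do not tell how unusual the 10 genes are. The robust SD was 0.37 for mean signals under 100, 0.21 from 100 to 400 and 0.12 from 400 upward. Without replicates, the ratios of the other 8 genes cannot be placed against the spread between samples.

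The rest of the pathway was examined through lists of related genes. Of 55 measured genes that encode related ligands, other receptors, other follistatin-domain and binding proteins, convertases, SMADs, SMAD cofactors and SMAD2 and SMAD3 responsive genes, 1 was at least 2-fold higher in the mutant, while none was 2-fold lower. Their median log2 ratio was 0.06. Of all measured genes 0.846% were at least 2-fold higher and 0.537% lower. Among those with a mean signal under 100, the share at least 2-fold higher was 2.14%. The gene past 2-fold was Lefty1, a secreted antagonist of Nodal, with a signal of 59.0 in the mutant and 9.01 in wild type, at least 2.45-fold higher. Lefty2, its neighbour in the family, had 38.7 in the mutant and 4.64 in wild type, at least 1.61-fold higher. Nodal itself, which signals through the activin receptors, had 31.9 in the mutant and 11.3 in wild type, a bound of 0.41. All 3 were below the floor in wild type and above it in the mutant. With the floor at the 60th percentile only Lefty1 of these was measured, at a bound of 0.28. With the floor at the 40th percentile Lefty1 had a bound of 2.10 and Lefty2 also passed 2-fold, as it did with the pseudocount, at 1.41.

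The other related ligands had small ratios. All 8 measured genes on that list had a ratio above 0, with a median of 0.37. Lefty1, Lefty2 and Nodal are among the 8 and were measured through the mutant array alone, which fixed their sign. The 5 genes above the floor on both arrays had ratios from 0.04 for Tgfb2 to 0.50 for Tgfb3. Tgfb3 had a signal of 199.1 in the mutant and 140.4 in wild type, a log2 ratio of 0.50. Gdf9, an oocyte growth factor, had 35.0 in the mutant and 27.9 in wild type, a ratio of 0.33. Tgfb1 and Tgfb2 had ratios of 0.06 and 0.04. Gdf11 and Bmp15 were below the floor on both arrays.

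Other receptors and binding proteins were less than 2-fold apart on their brightest probe sets, except that Acvrl1 was known only as a bound. Of 11 measured receptors and coreceptors, Acvrl1, a type I receptor of endothelium, was at least 1.63-fold lower. With the floor at the 40th percentile Acvrl1 had a log2 ratio of -0.81. Amhr2, the receptor for anti-Müllerian hormone, had 1838 in the mutant and 2620 in wild type, a log2 ratio of -0.51. Bmpr1b had a ratio of 0.49, and the list median was 0.09. Acvr1c, Tdgf1 and Cfc1 were below the floor on both arrays. Among 9 measured follistatin-domain and binding proteins, Spock2, Smoc2 and Smoc1 had ratios of 0.58, 0.57 and -0.27, and the median was 0.12. The convertases that cleave the precursors, Pcsk7, Furin and Pcsk6, had ratios of 0.10, 0.10 and -0.13, and the median of the 4 was 0.04.

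Genes downstream of the receptors were less than 2-fold apart on their brightest probe sets. Smad3, which carries the activin signal, had a signal of 620.8 in the mutant and 739.2 in wild type, a log2 ratio of -0.25 on its brightest probe set. Its other probe set was below the floor in the mutant and had a bound of -1.07, past 2-fold lower. Smad4, the shared partner, had a ratio of 0.09, Smad5 of -0.14, and the 7 measured SMADs had a median of -0.08. Skil, a repressor that SMADs induce, had 1585 in the mutant and 1085 in wild type, a ratio of 0.55. Foxh1, the SMAD2 partner, had a ratio of 0.53 and Zfyve9 one of -0.16. The other Foxh1 probe sets had a bound of 0.07 and a ratio of 0.35. At a floor of the 60th percentile Foxh1 had a bound of 0.17. The 13 measured SMAD cofactors had a median of 0.02. Among 8 measured SMAD2 and SMAD3 responsive genes 4 had a ratio above 0 and 4 below, with a median of -0.02. Ccn2, a matricellular protein, had a ratio of 0.58 and Cdkn2b, a cell cycle inhibitor, of -0.32. Smad7, an inhibitory SMAD induced by the pathway, had 175.3 in the mutant and 174.8 in wild type on its brightest probe set. The dimmer Smad7 probe set had 87.1 in the mutant and 66.6 in wild type, a log2 ratio of 0.39. Fshr, the receptor for follicle-stimulating hormone, was below the floor on both arrays.

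**Figure D3:**
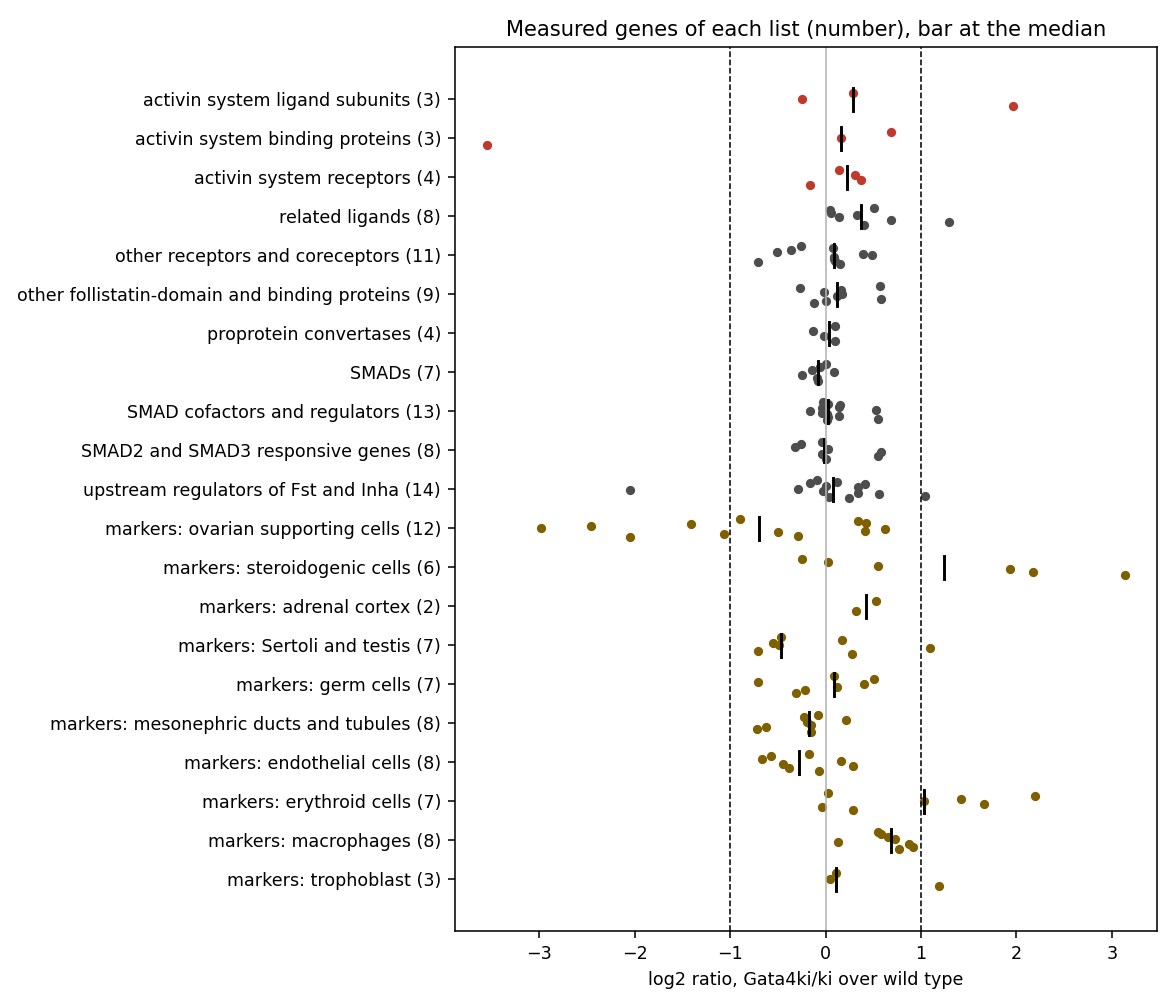
Log2 ratio of Gata4ki/ki over wild type for the measured genes of each list (brightest probe set, bounds at their value), with a bar at the list median, dashed lines at 2-fold and the number of genes in brackets. The activin system spans -3.55 to 1.96 while the SMAD list stays between -0.25 and 0.09, and the supporting cell and steroidogenic marker lists have medians of -0.69 and 1.24. The steroidogenic median lies between the bounds of Cyp11a1 and Star, at 0.55 and 1.93, and so depends on the floor.

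Genes listed as possible regulators upstream of Fst or Inha gave both directions. Of 14 measured genes, Zfpm1, which encodes FOG1, was 2.06-fold higher and Foxl2, as above, 4.13-fold lower. The other 12 were less than 2-fold apart. Over all measured genes the shares past 2-fold were 0.846% higher and 0.537% lower. The ratio of Zfpm1 was 0.94, under 2-fold, with a pseudocount in place of the floor. Zfpm2, which encodes FOG2, had a signal of 784.0 in the mutant and 530.2 in wild type, a log2 ratio of 0.56, and its other probe set had a ratio of 0.97. Gata4 had 286.2 in the mutant and 240.8 in wild type on its brightest probe set, and its dimmer probe set had a log2 ratio of -0.51. The allele changes the protein, so Gata4 signals are no check of the labels. Nr5a1, a nuclear receptor that activates Inha, had a ratio of 0.34, Gata6 of 0.03 and Ctnnb1, beta-catenin, of 0.01. The median of the list was 0.08.

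Some blood cell genes were also higher on the mutant array. On the erythroid list 4 of the 7 measured genes reached 2-fold higher, beside 0.846% of all measured genes. The list had a median log2 ratio of 1.03 and a summed signal of 14298 in the mutant and 13347 in wild type. The other 3 erythroid genes, Hba-x, Epb42 and Hbb-y, had ratios of 0.29, at least 0.02 and -0.04. Hemgn and Epb42 were below the floor in wild type, so both ratios are bounds whose sign was fixed. Of the 4 only Hemgn stayed past 2-fold in every setting, since Klf1 had a bound of 0.67 at a floor of the 60th percentile, Alas2 a ratio of 0.88 with the pseudocount and Slc4a1 one of 0.95 without suffixed probe sets. All 8 macrophage genes had a ratio above 0, beside 6320 of the 12300 measured genes. The macrophage list had a median of 0.69 and a summed signal of 2106 in the mutant and 1285 in wild type. Germ cell, mesonephric and endothelial markers had medians of 0.08, -0.17 and -0.28 with no gene 2-fold apart. Of 5 trophoblast genes on the array 3 were measured, and Prl7d1 was at least 2.28-fold higher, or had a log2 bound of 0.18 at a floor of the 60th percentile. The part of these cells in the ratios of the 10 genes was not tested.

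The processing settings changed few of these ratios. Over 7 settings, the reported one among them, the log2 ratio of Fst lay between -3.55 and -3.27 and that of Inha between 1.83 and 1.96. Fstl3 lay between 0.64 and 1.02 in the 6 settings in which it was measured. Acvr2b and Tgfbr3 turned to -0.01 and -0.21 when the median of all measured probe sets replaced the brightest. The signs of the other 8 genes, among them Fst and Inha, were kept in every setting in which they were measured.

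**Figure D4:**
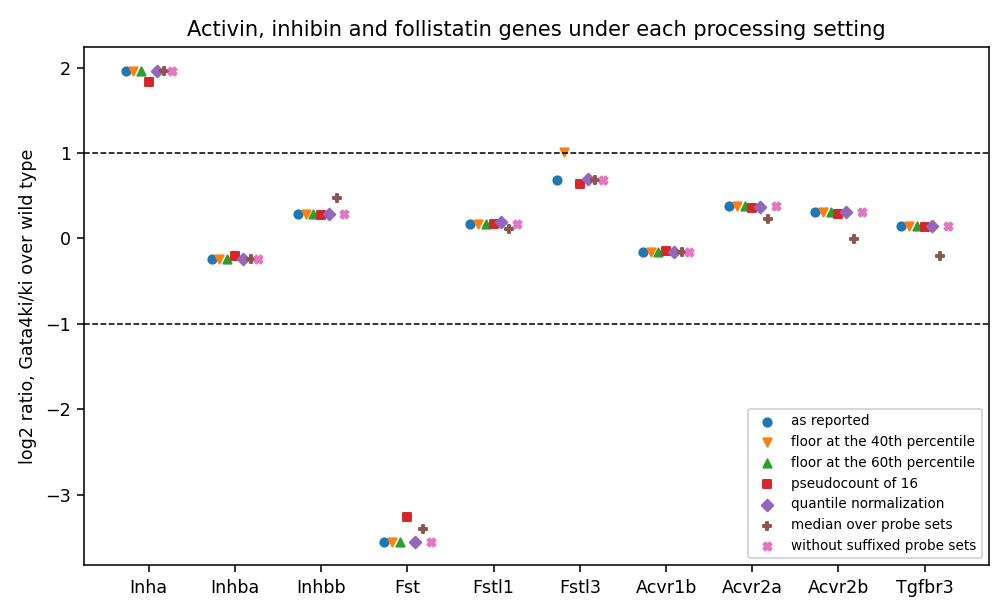
Log2 ratio of Gata4ki/ki over wild type of each of the 10 genes under 7 processing settings (symbols), with dashed lines at 2-fold. Fst stays between -3.55 and -3.27 and Inha between 1.83 and 1.96 in all 7, Fstl3 crosses 2-fold with the floor at the 40th percentile, and Acvr2b and Tgfbr3 cross 0 with the median over probe sets.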

How the data were processed

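Total RNA of 6 pairs of complexes a group was labelled with biotin and hybridised to 1 array a group. Each deposited value is the intensity of 1 probe set in linear units, and the submitters' processing notes name MAS5 as the tool that made it. Its version, its detection calls and any filter are not given in the sources at hand. One scaling factor an array leaves ratios between probe sets as they were. MAS5 signals are least precise at low signal, and the number of arrays limits the precision.

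Probe sets were named through the platform annotation, in which 34958 of 45101 had 1 gene symbol, 932 several and 9211 none. RefSeq's table for GRCm38.p6 held the gene number of 34754 of these. The arrays' values name no build, so no probe set or gene is placed on the genome, and coordinates are given only for the RefSeq sequence windows, on GRCm38.p6. The 64 control probe sets were left out of gene counts. Signals below the floor (50th percentile) were set to it, and log2 ratios are mutant minus wild type, with 2-fold counted as apart. With 1 array a group no test was made. The values were computed with Python 3.11.15, numpy 2.4.6 and pandas 2.3.3, and the calling of 2-fold genes was tested on simulated data.

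The 10 genes and all lists were chosen with earlier results of these data known. Of 180 listed symbols 168 were on the array. The text names all 10 genes in every probe set, the 3 genes with the largest ratio of each list and every gene 2-fold apart, a few fixed genes such as Gata4, Zfpm2 and Foxl2, and the 3 nearest ratios to Fst and Inha. Mesonephric, germ cell, endothelial and blood lists are described by counts. Further genes complete a group, picked once their values had been seen. The alternatives were floors at the 40th and 60th percentiles, a pseudocount of 16, quantile normalization, the median over probe sets, leaving out suffixed probe sets and a 1.5-fold threshold.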

Additional observations from a re-analysis of the deposited data

How the results depend on the processing

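The count of genes among the 10 at least 2-fold lower in the mutant was 1, Fst, in all 7 alternatives. The count of genes at least 2-fold higher was 1, Inha, in 5 alternatives. It was 2 for a floor at the 40th percentile and 2 at a threshold of 1.5-fold, where Fstl3 joined Inha. The log2 ratio of Fst was -3.27 with the pseudocount of 16, which understates the change of low signals by construction. The median log2 ratio of the 10 genes ranged from 0.05, with the median over probe sets, to 0.24, with quantile normalization. Raising the floor to the 60th percentile left no value for Fstl3, below it on both arrays, and made the second Fst probe set a bound of -2.32. Over all measured genes, 104 were at least 2-fold higher and 66 lower. These counts became 210 and 136 for a floor at the 40th percentile, 41 and 33 at the 60th, and 436 and 382 at 1.5-fold. No paired analysis was possible because each group had 1 array. Low signals limit the dimmer probe sets, and the absence of replicates limits every ratio.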
